A study of Mus musculus with 12 samples.

Results

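The genes described here were the cytochrome P450 families 1 to 3 of the mouse, in liver and gonadal white adipose tissue (GWAT) of male FVB mice. Members were every probe of an Illumina bead array whose annotated gene symbol begins with Cyp1, Cyp2 or Cyp3 followed by a subfamily letter and a number. This gave 82 probes of 53 genes in 15 subfamilies, of 45281 probes and 19057 named genes in all. The 4 groups were livers of Cav1 knockout (KO) mice and of wild-type (WT) mice, both aged 12 weeks, and GWAT labelled as Cav1 KO and as WT, both from mice aged 8 weeks. Each group had 3 arrays, and all mice were anesthetized with ketamine and xylazine at 3 PM per the labels, although that text names livers alone. Cav1 encodes caveolin-1, a protein that coats caveolae, flask-shaped pits of the cell membrane. How the knockout allele was made, and whether it was whole-body, is not in the labels. They also leave unsaid whether replicates were different mice, so each p-value rests on a spread between arrays that may be technical.

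P450 enzymes of families 1 to 3 sit in the endoplasmic reticulum, where they oxidize drugs, toxins, steroids and fatty acids with electrons passed on by P450 oxidoreductase. Liver is their main site, and many of their genes are switched on by the nuclear receptors CAR and PXR or by the aryl hydrocarbon receptor AhR when a foreign compound arrives. Several mouse members also differ between the sexes under the control of growth hormone. Genes of one subfamily lie side by side on a chromosome and can be nearly identical, so a probe named for one may also bind the RNA of another.

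The promoters of the genes whose probes differed most are shown because they let the near-identical copies be seen. Each window runs from 250 bases before to 50 bases after the annotated start, 300 bases in all, on the gene's own strand, from RefSeq on mouse assembly GRCm38.p6, which is C57BL/6J sequence and not FVB. Capitals mark a match to a searched motif on either strand. The TATA box was searched as TATAAA and the half-site of nuclear receptors as AGGTCA. The half-site of HNF1 was searched as GTTAAT, the core of the AhR element as GCGTG, and the element bound by STAT factors as TTCNNNGAA. No marked matches overlap. The Cyp2b windows are chr7:26173159-26173458 on the plus strand for Cyp2b9, chr7:26061245-26061544 plus for Cyp2b13, chr7:26686381-26686680 minus for Cyp2b23 and chr7:25897408-25897707 plus for Cyp2b10.
Cyp2b9: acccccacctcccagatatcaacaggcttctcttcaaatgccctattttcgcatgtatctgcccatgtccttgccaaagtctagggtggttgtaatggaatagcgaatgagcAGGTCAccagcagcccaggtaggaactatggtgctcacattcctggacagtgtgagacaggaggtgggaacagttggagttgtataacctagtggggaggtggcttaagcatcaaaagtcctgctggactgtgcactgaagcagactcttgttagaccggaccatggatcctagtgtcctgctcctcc
Cyp2b13: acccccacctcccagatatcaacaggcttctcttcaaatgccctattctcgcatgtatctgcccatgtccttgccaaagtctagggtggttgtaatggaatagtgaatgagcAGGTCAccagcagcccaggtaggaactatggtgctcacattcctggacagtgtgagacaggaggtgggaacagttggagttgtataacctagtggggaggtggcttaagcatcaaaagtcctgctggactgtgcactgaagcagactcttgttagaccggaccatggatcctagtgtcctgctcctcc
Cyp2b23: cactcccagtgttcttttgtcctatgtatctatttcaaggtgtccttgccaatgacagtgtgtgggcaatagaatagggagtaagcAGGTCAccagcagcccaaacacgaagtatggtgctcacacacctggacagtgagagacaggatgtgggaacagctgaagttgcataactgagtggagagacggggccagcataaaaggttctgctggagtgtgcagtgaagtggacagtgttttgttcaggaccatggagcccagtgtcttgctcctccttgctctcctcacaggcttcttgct
Cyp2b10: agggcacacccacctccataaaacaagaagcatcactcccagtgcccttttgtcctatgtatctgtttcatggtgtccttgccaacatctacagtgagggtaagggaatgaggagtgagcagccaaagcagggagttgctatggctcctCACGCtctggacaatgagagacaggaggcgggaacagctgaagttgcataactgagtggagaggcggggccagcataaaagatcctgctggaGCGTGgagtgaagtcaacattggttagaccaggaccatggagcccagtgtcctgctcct
The Cyp2b9 and Cyp2b13 windows were the same at 298 of 300 positions (99.3%), and differed by the substitutions T48C and C104T, with the Cyp2b9 base first and positions counted from 1 at the window's 5′ end. Cyp2b9 shared 65.0% of aligned positions with Cyp2b23 and 71.7% with Cyp2b10. AGGTCA stood in the Cyp2b9, Cyp2b13 and Cyp2b23 windows and not in that of Cyp2b10, which held GCGTG once on each strand. In the RefSeq table, Cyp2b10, Cyp2b13 and Cyp2b9 are direct neighbours on chromosome 7, and Cyp2b23 lies next to Cyp2b19 in the same cluster.

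Cyp2e1 and Cyp2f2 are shown because their probes were called in GWAT. Their windows are chr7:140763569-140763868 and chr7:27119705-27120004, both on the plus strand.
Cyp2e1: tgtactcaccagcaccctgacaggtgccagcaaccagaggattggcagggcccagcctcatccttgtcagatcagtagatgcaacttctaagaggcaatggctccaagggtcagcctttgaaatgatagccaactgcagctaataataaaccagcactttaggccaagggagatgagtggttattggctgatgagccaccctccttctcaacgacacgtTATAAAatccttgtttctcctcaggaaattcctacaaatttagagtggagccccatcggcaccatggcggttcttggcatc
Cyp2f2: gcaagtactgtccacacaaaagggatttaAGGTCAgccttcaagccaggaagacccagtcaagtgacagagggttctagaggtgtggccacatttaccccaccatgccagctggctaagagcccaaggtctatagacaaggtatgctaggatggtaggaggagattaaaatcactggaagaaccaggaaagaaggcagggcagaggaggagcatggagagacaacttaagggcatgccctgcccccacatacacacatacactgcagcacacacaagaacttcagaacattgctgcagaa
Cyp2e1 held TATAAA 31 bases before its start, and Cyp2f2 held AGGTCA 221 bases before its start. Of 48 promoter windows found for 45 of the 53 member genes, 47.9% held TATAAA, against 13.6% of all 32841 windows. AGGTCA stood in 37.5% of the member windows and 16.3% of all windows. For the other motifs the shares were 10.4% against 7.1% for GTTAAT, 4.17% against 8.3% for TTCNNNGAA and 18.8% against 32.4% for GCGTG. Members that are copies of each other share sequence, so these shares are descriptions, and a match is not a bound site.

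Cav1 itself was the check of the genotype labels. In liver its probe read 110, 117 and 113 in KO arrays, below background on each, against 172, 167 and 210 in WT arrays (limma, adjusted p = 0.0273). In GWAT the labels were contradicted: Cav1 read 14598, 15114 and 17476 on the arrays labelled KO and 112, 108 and 111 on the arrays labelled WT, a log2 difference of 7.87. GWAT arrays are therefore named by their labels throughout, and each GWAT direction below follows the labels and has the opposite sign if they were swapped. Intensities were normalized within each tissue, so levels are not compared across tissues, and tissue and age cannot be told apart. The share of probes above background, meaning above the 95th percentile of the olfactory, vomeronasal and trace amine receptor probes of the same array, was 33.7% to 36.5% in liver and 44.8% to 48.6% in GWAT, and precision is limited by there being few arrays. The tissue labels fitted most markers. The hepatocyte gene Ttr read 37940 to 41462 in KO and 37146 to 39249 in WT livers, and 65.2 to 78.8 in GWAT, near background. Fgb and Tat of the same list were near background in liver too, with group means of 116 to 129. The Alb probe was dim in liver, at 315 to 436 in KO and 262 to 300 in WT. Serpina1b of that list was well above background in GWAT. Its 3 probes read 1541 to 3217 on arrays labelled KO and 336 to 656 on arrays labelled WT. Of 9 measured adipocyte genes, Adipoq, Fabp4, Plin1 and Retn were never above background in liver. Plin4 (168 to 193) and 1 Pparg probe (141 to 212) were above it on all 6 liver arrays, and Cidec, Lep and Lipe on some. In GWAT every measured adipocyte gene was above background, with Adipoq at 18044 to 21302.

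In liver, 46 member probes of 31 genes exceeded background on 3 or more of the 6 arrays and were tested. The other 36 read between 93.2 and 142, and 22 genes had no tested probe. Members were among the brightest probes, where brightness depends on the probe as well as on its RNA and gives no order of levels between genes: Cyp2e1 was the 10th brightest of all probes, Cyp2c70 the 55th, Cyp2d9 the 71st and Cyp2f2 the 73rd. Cyp2b23 was the 1 member called higher in KO livers and 0 were called lower, by limma at a Benjamini-Hochberg adjusted p under 0.05 over all probes. Over all 15402 tested probes 0.0325% were called higher and 0.026% lower, so few probes of any kind passed. At an unadjusted p below 0.05, 11 member probes of 9 genes were higher and 3 were lower, where the shares over all probes were 5.6% and 4.32%. The members' median log2 difference, KO minus WT, was 0.10, and that of all tested probes was -0.02. The groups did not overlap for 6 members on the higher side and 3 on the lower side, with 6.79% and 8.6% of all tested probes doing so. In bulk tissue, fewer cells of a type and less RNA per cell cannot be told apart.

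**Figure D1:**
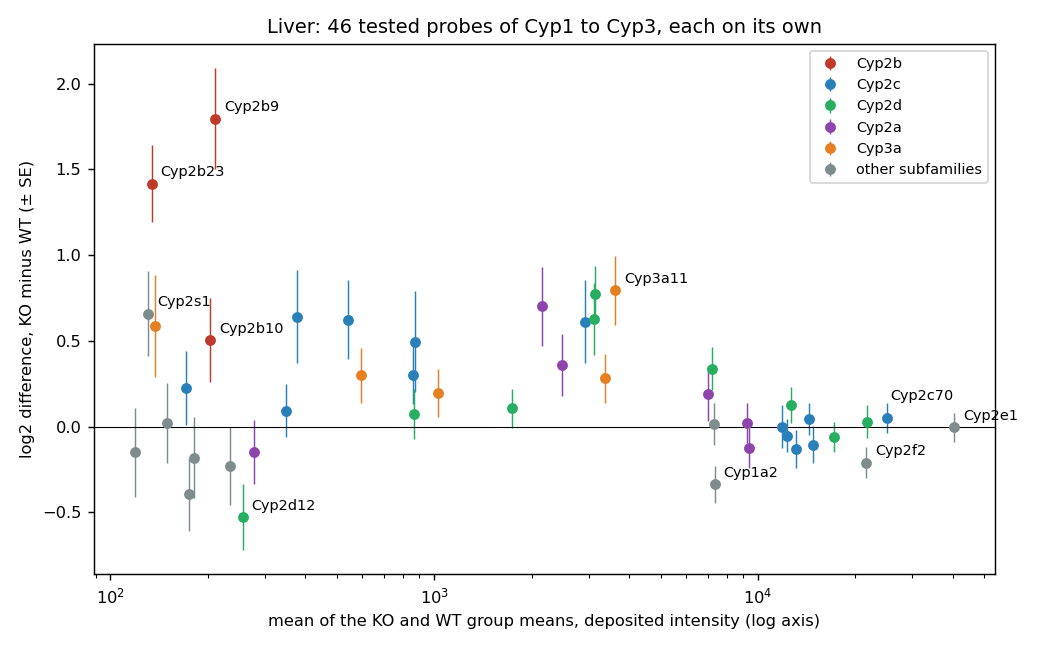
Log2 difference between KO and WT livers (KO minus WT, background-corrected, ± SE, 3 arrays per group) for the 46 tested probes, against the mean deposited intensity on a log axis. Cyp2b9 and Cyp2b23 lie above 1, while the 11 probes at 10000 or more lie between -0.21 and 0.13.

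The largest differences in liver were in Cyp2b, the subfamily best known for its induction through CAR. Cyp2b23 read 161, 156 and 156 in KO livers, against 122, 105 and 104 in WT livers. All KO arrays lay above all WT arrays, and the probe was above background on 3 of 3 KO arrays and 1 of 3 WT arrays. It was called higher, with a log2 difference of 1.42 after background correction (SE 0.23, limma adjusted p = 0.0417). The probe met the filter through the KO arrays, and 2 of the 3 WT arrays lay below background, so the size of the difference is uncertain. Without background correction it was 0.51 and missed the threshold (limma adjusted p = 0.0595), and the deposited means differed by a ratio of 1.42. A second Cyp2b23 probe stayed below background, at 105 ± 1.09 in KO and 104 ± 9.69 in WT livers (SD, n = 3). The call was kept in 7 of 15 alternative settings and lost in 8, where the adjusted p reached 0.378.

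Cyp2b9, which is more abundant in female than in male mouse liver, read 384, 219.9 and 230.1 in KO livers and 141, 134 and 155 in WT livers. The groups did not overlap, and KO array 1 stood well above the other KO arrays. Its log2 difference was 1.80 (SE 0.29) and missed the threshold (limma adjusted p = 0.0514). It passed in 7 of the 15 alternatives, among them the leaving out of KO array 1. Without background correction the log2 difference was 0.91 (limma adjusted p = 0.142). The WT arrays lay close to the background of 121 to 124, and the KO arrays above it. Cyp2b10, the textbook CAR target, read 204, 257 and 205 in KO livers against 159, 214 and 183 in WT livers, and the groups overlapped (log2 0.50, SE 0.25, limma adjusted p = 0.523). Its second probe read 115 ± 1.66 in KO and 110 ± 5.93 in WT livers (SD, n = 3), below background on all 6 arrays.

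Cyp2b13, whose promoter is nearly that of Cyp2b9, was not above background on any liver array, at 109 ± 2.49 in KO and 105 ± 6.34 in WT livers (SD, n = 3). Both Cyp2b19 probes were also dim, at 107 ± 4.51 and 108 ± 3.77 in KO livers against 119 ± 5.27 and 103 ± 6.79 in WT livers (SD, n = 3), and 1 WT array of the first of them was above background. How much the Cyp2b9 and Cyp2b23 probes bind the RNA of their copies was not tested.

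**Figure D2:**
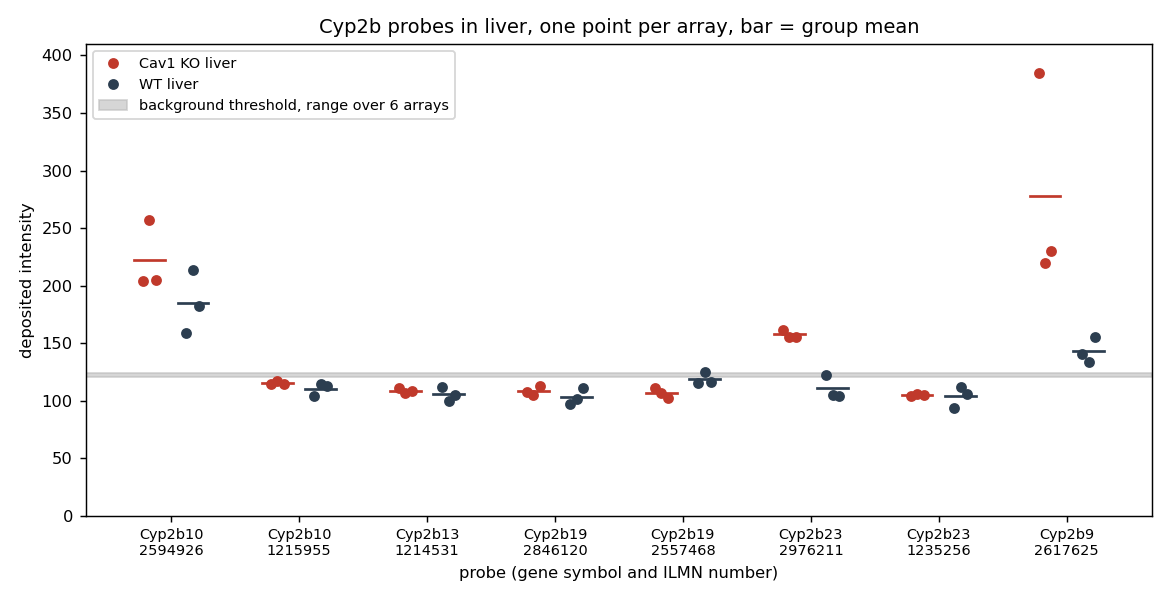
Deposited intensity of the 8 Cyp2b probes in liver, with a point per array, KO left of WT, a bar at each group mean and the background threshold in grey. The Cyp2b23 probe that was tested reads 156 to 161 in KO and 104 to 122 in WT livers, and Cyp2b9 reads 219.9 to 384 in KO and 134 to 155 in WT livers.

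Cyp3a11 and Cyp2d26 came next in size and did not pass. Cyp3a11, a main drug-metabolizing P450 of mouse liver and a PXR target, read 3507, 3673 and 6723 in KO livers against 2574, 2804 and 2406 in WT livers. All KO arrays were above all WT arrays, and KO array 3 was far above the other KO arrays (log2 0.79, SE 0.20, limma adjusted p = 0.265). Cyp2d26, named here after its values were seen, had 3 tested probes with log2 differences of 0.77, 0.63 and 0.34 and adjusted p-values of 0.177, 0.380 and 0.416. Its probe with the lowest p read 2966, 3806 and 5126 in KO livers against 2444, 2191 and 2285 in WT livers, and again the groups did not overlap and KO array 3 was the highest.

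The brightest members differed little. Cyp2e1, which oxidizes ethanol and acetone, read 40448, 39036 and 41016 in KO livers against 41462, 41989 and 37637 in WT livers (log2 -0.01, SE 0.08, limma adjusted p = 0.990). Cyp2c70, which makes the muricholic acids of mouse bile, read 23363, 26691 and 26278 in KO livers against 24482, 25081 and 24124 in WT livers (log2 0.05, SE 0.09). For Cyp2d9, a male-biased steroid hydroxylase, the values were 20084, 21819 and 23820 in KO livers and 22221, 22221 and 19904 in WT livers (log2 0.03, SE 0.10). In each of these 3 the groups overlapped, and the spread between arrays was larger than the difference. The 11 members at a mean of 10000 or more had log2 differences from -0.21 to 0.13 and a median of -0.01, against -0.02 for the 273 probes of that brightness.

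Differences below 0 were fewer. Cyp1a2, an AhR target that oxidizes caffeine and aromatic amines, read 6682, 6313 and 6481 on its brightest probe in KO livers, against 7213, 8313 and 9098 in WT livers. The groups did not overlap (log2 -0.34, SE 0.11, limma adjusted p = 0.370), yet its second probe of nearly the same brightness gave a log2 difference of 0.02. Cyp2f2, known from club cells of mouse lung and from periportal hepatocytes, read 21172, 19277 and 19543 in KO livers against 22729, 22367 and 24235 in WT livers, again without overlap (log2 -0.21, SE 0.09, limma adjusted p = 0.461). Cyp2d12, named after its values were seen, was the third without overlap on that side (log2 -0.53, limma adjusted p = 0.416).

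Of the remaining subfamilies, the brightest probes were as follows. Cyp2a5, the coumarin hydroxylase, read 7991, 10039 and 8958 in KO against 9047, 11284 and 9131 in WT livers, which overlapped (log2 -0.13, SE 0.12). Cyp2s1 read 148, 141 and 131.3 in KO against 121, 112 and 130.7 in WT livers, near background (log2 0.66, SE 0.25, limma adjusted p = 0.423). Its groups barely failed to overlap. The probe was above background on 3 KO arrays and 1 WT array, so it met the filter through the KO arrays. Cyp2u1, a fatty acid hydroxylase, had a log2 difference of -0.40 (SE 0.21), Cyp2j9 of -0.23 (SE 0.23), the olfactory-type Cyp2g1 of -0.18 (SE 0.24) and Cyp2r1, a vitamin D 25-hydroxylase, of -0.15 (SE 0.26). None of these 4 passed, and their groups overlapped.

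Probes of the same gene did not give the same difference. Of 8 genes with several tested liver probes, the brightest probe had the lowest log2 difference in 7, the exception being Cyp2a5. Cyp1a2, Cyp2c67 and Cyp2g1 had only 2 such probes each, and those of Cyp1a2 were almost equally bright, with means of 7350 and 7325. The count is therefore a description. The span between probes of one gene exceeded 0.5 in 3 genes: 0.85 for Cyp2a5, 0.75 for Cyp2c50 and 0.57 for Cyp2c67. For Cyp2c50 the probe with a mean of 14781 gave -0.11, while those at 870 and 376 gave 0.50 and 0.64. For Cyp2c67 the probe at 14396 gave 0.04 and the one at 2915 gave 0.61. Which transcripts each probe reads was not tested.

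**Figure D3:**
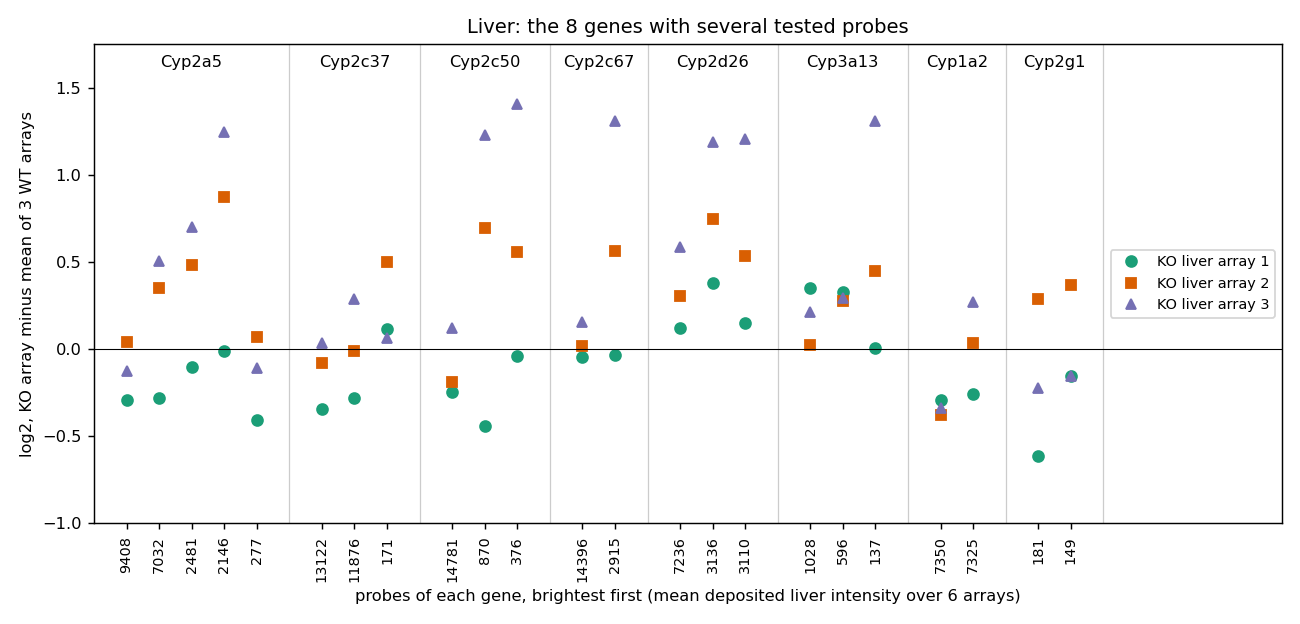
Log2 value of each KO liver array minus the mean of the 3 WT arrays, for each tested probe of the 8 genes with several, ordered by mean deposited intensity. KO array 3 (triangles) lies at or above 1 on a dimmer probe of Cyp2a5, Cyp2c50, Cyp2c67, Cyp2d26 and Cyp3a13, while KO array 1 (circles) lies below 0.5 throughout.

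The 3 KO livers were not alike in these genes. KO array 3 was the highest KO array for 28 of the 46 members, KO array 1 for 10 and KO array 2 for 8. Their median log2 values over the WT mean were -0.06 for KO array 1, 0.09 for array 2 and 0.26 for array 3. Among the 15 members with means between 1000 and 10000, 60% were more than 0.5 above the WT mean on KO array 3, against 7.60% of all 2078 tested probes of that brightness. Of the 20 members under 1000 it was 30%, against 13.1% of all 13051 such probes, and of the 11 members at 10000 or more it was 0%, against 2.93% of all 273. On KO array 2 the shares were 33.3% against 3.51% between 1000 and 10000, and 35% against 7.68% under 1000. On KO array 1 they were 0% against 2.07% and 15% against 5.95%. In all, 15 members lay more than 0.5 above the WT mean on KO array 3, 12 on array 2 and 3 on array 1. KO array 1 also read Lcn2, a secreted acute-phase protein of hepatocytes under inflammation, at 3697, while KO arrays 2 and 3 read 339 and 186 and WT arrays 613, 302 and 301. Lcn2 was in the list of epididymal and duct markers, and no list of acute-phase genes was used. Its difference in liver was not called (log2 0.63, limma adjusted p = 0.861). Whether the state of the liver on KO array 1 has a part in its P450 levels was not tested.

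Leaving out KO array 1 changed the count of calls in liver. Without it 11 member probes of 8 genes were called, all higher, with log2 differences of 0.59 to 1.41, where 1.94% of all tested probes were called. These were probes of Cyp2a5, Cyp2b9, Cyp2b23, Cyp2c50, Cyp2c54, Cyp2c67, Cyp2d26 and Cyp3a11. With any of the WT arrays or KO array 2 left out the count was 0, and without KO array 3 it was 2, namely Cyp2b9 and Cyp2b23. The share of all probes called without KO array 3 is not given here. Weighting arrays by their quality gave 10 member calls, 8 higher and 2 lower, beside 4.6% of all tested probes.

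Genes that act with the P450s gave no call in liver. Of 13 tested probes of 8 electron transfer partners, 0 passed limma's adjusted threshold and 3 had an unadjusted p below 0.05 (median log2 0.03). This list summed to 54039 to 60142 in KO and 61521 to 64147 in WT livers, with 7 probes above 0 and 6 below. P450 regulators gave 0 of 32, with 1 at the unadjusted threshold (median 0.03), and CAR, PXR and AhR targets outside the families 0 of 22, with 5 (median 0.12). Growth hormone and sex-bias regulators gave 0 of 10, with 1 at the unadjusted threshold (median 0.06). Female-biased liver genes gave 0 of 7, with 0 at the unadjusted threshold (median 0.14, 4 probes above 0 and 3 below). Male-biased liver genes gave 0 of 23, with 4 at the unadjusted threshold (median -0.20). In that list 22 probes had a log2 difference below 0 and 1 above it, from -1.43 to 0.32. Its summed intensities did not overlap, at 99224 to 104942 in KO and 109928 to 120532 in WT livers. The cause was not tested. Cyb5a and Alas1 of the electron transfer list had log2 differences of -0.03 on the brighter probe and -0.21. The 13 tested probes of that list ran from -0.46 to 0.54. The CAR gene Nr1i3 had a log2 difference of -0.03 on its brightest probe. Within the 6 lists above, Socs2, a growth hormone target, had the lowest adjusted p (log2 0.74, limma adjusted p = 0.119). Cyp4a12b, a male-biased hydroxylase, followed (log2 -0.84, limma adjusted p = 0.177). The AhR gene itself, Ahr, was never above background in liver. Summed hepatocyte markers ran from 365476 to 395133 in KO and 361362 to 367543 in WT livers with 0 of 21 probes called and 4 at an unadjusted p below 0.05. Pericentral markers other than P450s summed to 17148 to 20032 in KO and 15507 to 16353 in WT livers, with 0 of 15 called and 2 at the unadjusted threshold. The brightest of these probes were Oat, with a mean of 8510 in KO and 6485 in WT livers, and Gulo, with 5078 in KO and 4654 in WT livers, while 10 of the 15 probes had a log2 difference below 0 and the list's median was -0.16. Glul, the defining pericentral enzyme, had a log2 difference of -0.53 and Lgr5 of -0.50, neither of which passed. Periportal markers summed to 67658 to 74059 in KO and 59260 to 63214 in WT livers, with 0 of 13 called, 6 at the unadjusted threshold and a median of 0.09. In that list 7 probes had a log2 difference above 0 and 6 below, from -0.52 to 0.60. Mesothelial markers summed to 960 to 982 in KO and 798 to 877 in WT livers, with 0 of 3 called, 2 at the unadjusted threshold, both of Upk3b, and a median of 1.03. Msln and Lrrn4 of that list were never above background. Fibroblast markers summed to 8228 to 8363 in KO and 7343 to 7706 in WT livers, with 0 of 9 called and 2 at the unadjusted threshold, both of Dcn. The brightest probe of that list was also of Dcn, with means of 5496 in KO and 5128 in WT livers. Of the 9 probes, 7 had a log2 difference above 0 and 2 below, with Col1a1 at -0.37. Macrophage markers summed to 7095 to 7765 in KO and 5940 to 6881 in WT livers, and of 13 probes 1, for Lyz2, was higher (log2 1.00, limma adjusted p = 0.0343). Another tested Lyz2 probe did not pass (log2 0.24, limma adjusted p = 0.691), and a dimmer one was never above background. The part of these cell types in the P450 values was not tested.

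In GWAT, 12 member probes of 12 genes were tested, 59 of the 82 were above background on no array, and 41 genes had no tested probe. On the arrays labelled KO, Cyp2e1 and Cyp2j9 were called higher and Cyp2f2 lower, where 11.2% of all 21300 tested probes were called higher and 11.4% lower. These shares are large, so 3 calls among 12 members are no result about the family. The groups did not overlap for 3 members on the higher side and 2 on the lower side, as for 20.6% and 18.8% of all tested probes. The members' median log2 difference, labelled KO minus labelled WT, was 0.04, beside 0.01 over all tested probes.

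Cyp2f2 read 104, 89.7 and 104 on arrays labelled KO, against 216, 222 and 271 on arrays labelled WT. The groups were far apart, and all 6 values were above the background of 70.4 to 73.8. It fell by 1.80 on the log2 scale (SE 0.16, limma adjusted p = 2.99e-05), and the call held in 15 of 15 alternatives, with log2 values of -1.89 to -1.21. Among hepatocyte markers in GWAT, Alb, Ambp, Apoa2, Apob, Cps1, Fgb, Hpd, Tat and Tdo2 were never above background. The summed hepatocyte list was 7763 to 9407 on arrays labelled KO and 2632 to 2899 on arrays labelled WT, with the 3 Serpina1b probes higher and 1 Ahsg probe lower, of 9 tested. Epididymal and duct markers summed to 4471 to 4735 on arrays labelled KO and 4433 to 5680 on arrays labelled WT, with 2 Aqp2 probes higher and Aqp5 and Lcn2 lower, of 9 tested, and none of the measured genes was at background on all arrays. Among the arrays labelled WT, array 1 stood out for Krt8, at 1086 against 637 and 613. For Spink8 it read 116 against 56.2 and 66.5. The part of such epithelium in the Cyp2f2 value was not tested.

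Cyp2e1 was the 65th brightest probe of the GWAT arrays. It read 24359, 21847 and 23936 on arrays labelled KO against 17793, 16591 and 18163 on arrays labelled WT. The groups did not overlap, and Cyp2e1 rose by a log2 difference of 0.42 (SE 0.07, limma adjusted p = 0.00149), a call kept in 15 of 15 alternatives. Summed adipocyte markers were 74435 to 77604 on arrays labelled KO and 76618 to 79442 on arrays labelled WT, with 4 probes higher and 2 lower of 14. Fibroblast and macrophage markers had 7 probes lower of 13 each and none higher, and smooth and skeletal muscle markers had 4 of 8 and 3 of 5 higher. The part of these cell types in the Cyp2e1 value was not tested.

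Cyp2j9, of the subfamily that forms epoxides of arachidonic acid, read 300.3, 272 and 298 on arrays labelled KO and 217, 235 and 261 on arrays labelled WT. The groups did not overlap, and the rise was small (log2 0.34, SE 0.11, limma adjusted p = 0.0498). The call was lost in 9 of 15 alternatives, with an adjusted p of up to 0.132.

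**Figure D4:**
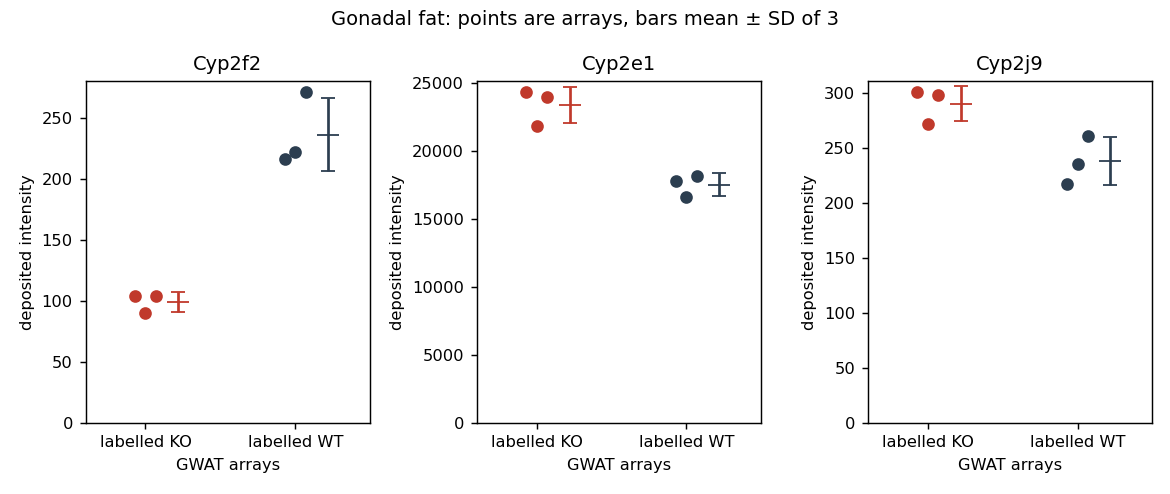
Deposited intensity of Cyp2f2, Cyp2e1 and Cyp2j9 on GWAT arrays, labelled KO left of labelled WT, with a point per array and mean ± SD of 3 arrays. Cyp2f2 lies at 89.7 to 104 on arrays labelled KO and 216 to 271 on arrays labelled WT, and the groups do not overlap in any of the 3 panels.

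The other tested members of GWAT did not pass. Cyp2c23 read 124, 124 and 128 on arrays labelled KO against 135, 141 and 157 on arrays labelled WT, without overlap (log2 -0.30, SE 0.13, limma adjusted p = 0.121). Cyp2d22 read 1234, 1283 and 1111 on arrays labelled KO against 1216, 1417 and 1353 on arrays labelled WT, which overlapped (log2 -0.14, SE 0.09). Cyp1b1, an AhR target found mainly outside the liver, read 278 ± 38.8 on arrays labelled KO and 303 ± 22.5 on arrays labelled WT (SD, n = 3), and Cyp2s1 383 ± 64.6 and 411 ± 31.1 (SD, n = 3). Their log2 differences of -0.16 and -0.13 lay within the spread between arrays. Cyp2a4 (log2 0.19), Cyp2b10 (0.04), Cyp2d9 (0.25), Cyp2d10 (0.04) and Cyp2d40 (0.08) read below 150 on every GWAT array. Of these 5, the groups did not overlap for Cyp2d9.

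Around these members, the supply genes of the P450 system moved in both directions in GWAT. Of 13 electron transfer probes, 3 were higher on arrays labelled KO and 4 lower. Alas1, which starts heme synthesis, rose (log2 0.41, limma adjusted p = 0.0028), as did Fech, which puts iron into heme, on 2 of its 3 tested probes (0.35 and 0.41). Cyb5r3, a reductase of cytochrome b5, fell on 3 probes (log2 -0.62, -0.56 and -0.63), and Cyb5b fell by 0.32 on the log2 scale. Of 24 regulator probes 4 were higher and 3 lower: the clock-linked factor Dbp (log2 0.49) and the bile acid receptor Nr1h4 (0.75) rose, Tef, another clock-linked factor, rose on 1 probe (0.70) and was not called on a brighter one (0.26, limma adjusted p = 0.157), Cebpa (-0.41) and Cebpb (-0.62) fell, and Arnt, the AhR partner, was higher on 1 probe (0.25) and lower on another (-0.57). Nr1i2, the PXR gene, and Ahr were never above background in GWAT. Targets of CAR, PXR and AhR outside the families gave 1 higher, a Gstm1 probe (0.61, with 0.14 on a dimmer one), and 1 lower, Aldh1a7 (-0.47), of 13. Growth hormone and sex-bias regulators gave 1 higher, Bcl6 (0.84), and 3 lower, Socs2 (-0.42), Cish (-1.39) and 1 Ghr probe (-1.05), of 11. The other tested Ghr probes had log2 differences of -0.16 and 0.17 and did not pass. Lists of sex-biased liver genes gave 5 higher and 1 lower of 12 for the female-biased and 1 higher and 3 lower of 15 for the male-biased. Against the 11.2% and 11.4% of all probes called, these counts are descriptions of lists chosen with earlier results of these data known.

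The difference between tissues could be tested for the 10 members above background in both. It was called for Cyp2f2 and Cyp2e1, where 6.11% of all 14358 tested probes were called. For Cyp2f2 the log2 difference was -1.80 in GWAT, labelled KO minus labelled WT, and -0.21 in liver, a difference of -1.59 (SE 0.17, limma interaction, adjusted p = 5.2e-05). For Cyp2e1 it was 0.42 in GWAT and -0.01 in liver, a difference of 0.42 (SE 0.10, adjusted p = 0.0225), which was lost without the intensity trend (adjusted p = 0.126). With the GWAT labels exchanged, these differences read 2.01 for Cyp2f2 and -0.41 for Cyp2e1. The other 8 did not pass, and the members' median difference was -0.14, beside 0.03 over all tested probes. Of the 82 members, 36 were tested in liver alone, Cyp1b1 and Cyp2a4 in GWAT alone and 34, of 20 genes, in neither tissue.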

How the data were processed

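Total RNA was labelled with biotin and hybridised to Illumina bead arrays, per the labels' protocols. The authors deposited linear probe intensities, from which it was found that they had been quantile-normalized within each tissue (the sorted values of the liver arrays lay within 0.461% of each other and those of the GWAT arrays within 1.22%) with no background subtracted (lowest values of 84.0 and 40.6). The software behind this and the build behind the annotation are not given in the sources used here. Another 48 columns, named by chip position, matched no sample and were not used. Probes were named from the platform annotation (34885 with 1 symbol, 18 with several, 10378 with none), and all 82 member symbols matched the RefSeq table.

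Background was removed by normexp in limma 3.58.1 (R 4.3.3), with 1525 olfactory, vomeronasal and trace amine receptor probes in the place of negative controls and an offset of 16, then taken to log2. Probes above the 95th percentile of those receptor probes on at least 3 of 6 arrays of a tissue were tested one by one with limma's two-sided moderated test, its variance prior following intensity, and p-values were adjusted by Benjamini-Hochberg over all probes. The difference between tissues was an interaction term over 12 arrays. On simulated data for 15402 liver probes, 200 were changed, 100 by a log2 of 1 and 100 by 2. Of these, 80% and 100% were recovered, beside 15 false calls. The simulation gave every array of a probe the same spread and drew probes independently. The real KO livers were not alike and few probes passed, so these shares do not say how many real changes were found. Alternatives changed the background correction, the filter, the choice of probe, the variance model, the weights, the replicate block and each array in turn.

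Named were all called members, the brightest tested probe of each subfamily and every Cyp2b probe, with others by counts and ranges. Members and lists were chosen with earlier results of these data known. Promoter windows came from RefSeq on GRCm38.p6 and were aligned with Biopython 1.88.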

Additional observations from a re-analysis of the deposited data

Results flagged for a closer look

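Of the 10 members tested in both tissues 2 had a KO minus WT difference that was not the same in GWAT and liver by the interaction term. For Cyp2f2 the difference between tissues was -1.59 on the log2 scale, from values of 104, 89.7 and 104 on GWAT arrays labelled KO against 216, 222 and 271 on those labelled WT, and of 21172, 19277 and 19543 in KO livers against 22729, 22367 and 24235 in WT livers. For Cyp2e1 it was 0.42, with a mean rise in GWAT and overlapping groups in liver. Both signs are those of the GWAT labels, which the Cav1 probe contradicts, and tissue and age cannot be told apart.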

How the results depend on the processing

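The liver count of member calls, 1 as reported, was 0 without background correction, 0 with normexp at an offset of 50, 0 with a stricter filter and 0 without the intensity trend, 2 without a filter, 2 with 1 probe per gene, 2 with robust variance estimates, 2 with the replicate block and 10 with array weights. Leaving out 1 liver array gave 0 to 11 calls. Under the settings with 0 member calls, limma called 0 to 7 probes of the whole array. It called 4.6% of all tested probes with array weights and 1.94% without KO array 1. For the other liver alternatives with member calls, the share over all probes is not given here. Those counts are therefore no result about the family. The GWAT count, 3 as reported, was 2 or 3 under all 15 alternatives. The count for the difference between tissues, 2 as reported, was 4 without a filter, where dim probes entered, and 1 without the intensity trend. The share over all probes is not given for either setting. Over all single members and alternatives, 857 of 930 values kept their direction and their side of the threshold, 24 passed it newly, 18 lost it and 31 changed sign. Most members were not called, and those that stayed uncalled with the same sign count as kept. The share therefore says little about the calls. Of the calls within a tissue, Cyp2f2 and Cyp2e1 held in 15 of 15 alternatives, Cyp2b23 in 7 and Cyp2j9 in 6.

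With array weights, 1 Cyp2c37 probe turned to -0.018, Cyp2c29 to -0.00052 and 1 Cyp2g1 probe to 0.12. With single liver arrays left out, the log2 difference ran from -0.15 to 0.11 and from -0.42 to 0.031 for the Cyp2g1 probes, -0.055 to 0.024 for Cyp2e1, -0.14 to 0.14 for 1 Cyp2c37 probe, -0.093 to 0.14 for Cyp2a12, -0.38 to 0.059 for Cyp2r1, -0.033 to 0.090 for Cyp2d9, -0.049 to 0.17 for Cyp2d13, -0.11 to 0.15 for the second Cyp1a2 probe and -0.012 to 0.088 for the brighter Cyp2c67 probe. In GWAT it ran from -0.072 to 0.24 for Cyp2d10, -0.035 to 0.19 for Cyp2b10 and -0.015 to 0.14 for Cyp2d40. With the GWAT labels exchanged, the difference between tissues was 0.015 for Cyp2d22, 0.36 for Cyp2c23, -0.41 for Cyp2e1, -0.28 for Cyp2d9, 2.01 for Cyp2f2 and -0.11 for Cyp2j9. The causes were not tested.

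Replicate numbers are shared by KO and WT. The correlation of same-numbered deviations was -0.02, -0.03 and 0.02 in liver and -0.01, 0.002 and 0.11 in GWAT. Unlike-numbered GWAT pairs ran from -0.14 to 0.14. With 3 arrays per group these values cannot decide whether samples were paired. The replicate block gave 2 member calls in liver and 2 in GWAT. Signal over background limits the Cyp2b values in liver: Cyp2b23 and the WT arrays of Cyp2b9 read near background, and without background correction the log2 difference was 0.51 for Cyp2b23 and 0.91 for Cyp2b9.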
